A study of Mus musculus with 13 samples.

Results

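The comparison set the tumours of mice that carry both oncogenes against the tumours of mice that carry only one of them, and asked which genes lie outside the range of both single-driver groups. It used 10 of the 13 arrays of the study. All were made from RNA of C57BL/6 mice. Tumours of genotype MYCN AND mutated ALK (here double transgenic or double, n = 3 arrays) were compared with the unweighted average of the group means of tumours driven by mutated ALK alone (mutALK, n = 3) and by MYCN alone (n = 4). The transgenes are expressed specifically in the neural crest, no treatment was given, and the animals were killed once a tumour had become palpable. Normal adrenal gland of mice without a transgene (n = 3) entered the estimate of the spread and is given as a reference level. The labels name neither the promoter nor the exact change in ALK and give no age or sex. Nothing in them ties every array to an animal of its own, so the p-values cover only the spread between samples, part of which may be technical. The titles of mutALK 2 and 3 begin with the same number, as do those of MYCN 2 and 3. Levels are log2 expression as mean ± SD, differences are log2 differences ± SE, and a gene is called where its limma p, adjusted by Benjamini-Hochberg over all 18193 genes, was under 0.05.

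Neuroblastoma is a childhood tumour of the sympathetic nervous system that arises from neural crest cells on their way to becoming sympathetic neurons or chromaffin cells. ALK is a receptor tyrosine kinase of these cells that signals through the MAP kinase and PI3 kinase pathways, and MYCN is a transcription factor that pairs with MAX and drives growth and cell division. A tumour also holds blood vessels, the pericytes and smooth muscle cells around them, fibroblasts and immune cells, and all of them contribute RNA to a bulk sample. In such samples fewer cells of a type and less RNA per cell cannot be told apart.

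The double transgenic arrays stood apart from the single-driver arrays in control signals before any gene was compared. The difference between the 3' and 5' control probe sets, which grows as RNA is broken or copied short, was 0.78, 0.71 and 1.07 for Actb in double 1, 2 and 3 against 0.54 to 0.70 in the 7 single-driver arrays, and 0.53, 0.43 and 0.77 for Gapdh against 0.17 to 0.35. The poly-A spike-in controls, added to the RNA before labelling, averaged 6.49, 6.00 and 6.58 against 7.80 to 8.13. In each of these measures the groups did not overlap (two-sided exact permutation test over 120 regroupings, p = 0.00833, the smallest the design allows, adjusted p = 0.0111 over 4 measures), while the hybridization controls differed by -0.04 (exact permutation p = 0.667). The titles of the double transgenic arrays are also written in another format than the others. Whether they were processed in another batch is not given, so that a batch and the double genotype cannot be told apart, and the part of RNA quality or spike-in amount in the results below was not tested. Liver transcripts were high (list mean above 8) in 5 arrays, here called liver-rich: mutALK 1 and 3, MYCN 2, adrenal 2 and double 1 (11.62 against 4.55 in double 2 and 5.74 in double 3). Double 1 also had the highest adrenal cortex list mean of the 10 tumour arrays (6.80 against 5.12 to 5.65 in the others) and a raised skeletal muscle mean (6.51). By Xist and Y-linked genes 1 double transgenic, 2 mutALK and 1 MYCN arrays were female.

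Neither of the genes that give the models their names was called in the contrast. Their probe sets target mouse transcripts. The labels leave the species of the transgenes unstated, and these values are no test of genotype. Mycn read 9.77, 9.86 and 10.93 in the double transgenic arrays, between 11.79 to 12.41 in mutALK and 5.19 to 7.23 in MYCN tumours, a difference from the average of 0.99 ± 0.46 (adjusted p = 0.262, 0.28 for the mean of its probe sets). Alk, at 8.74, 9.13 and 9.47, lay within the range of the single drivers (8.41 to 9.87), with a difference of 0.00 ± 0.21 (adjusted p = 0.997).

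Most genes that separate the single drivers took an intermediate level in the double transgenic tumours. Between mutALK and MYCN tumours 5603 genes (30.8%) were called. Of these, 79.9% had a double transgenic mean between both single-driver means, 11.4% lay above both and 8.67% below both. On a line that runs from 0 at the MYCN mean to 1 at the mutALK mean, the double transgenic arrays lay at 0.45, 0.41 and 0.59 over these genes. The separation of the single drivers uses none of the double transgenic values, but the single-driver arrays enter both sides of this description, and it was not tested.

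Against that background 777 genes (4.27% of those tested) were called in double minus the average, 384 higher (2.11%) and 393 lower (2.16%). The average can be left behind by a gene that differs from a single driver only, and 465 of the 777 were called against exactly 1 of them. Double minus mutALK alone had 2624 calls (14.4%) and double minus MYCN alone 2333 (12.8%). Both contrasts share the double transgenic arrays. A gene was counted as beyond both single drivers where it was called in each of these contrasts with the same sign, which held for 311 genes (1.71%), 124 higher (0.682%) and 187 lower (1.03%). By at least 2-fold against each driver these were 41 higher and 95 lower. Taking the arrays without a test, 1242 genes (6.83%) had all 3 double transgenic arrays outside all 7 single-driver arrays, 580 above (3.19%) and 662 below (3.64%), and 296 of the 311 genes beyond both were among them. Over all genes the median difference was -0.01, and the middle 90% lay between -0.69 and 0.59. The number of calls depended on single arrays. Without double 2 there were 120 calls (114 beyond both), without double 3 316 (213), without MYCN 2 331 (175), without MYCN 3 458 (198), without MYCN 4 457 (186), without mutALK 2 473 (187) and without adrenal 2 1317 (516).

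**Figure D1:**
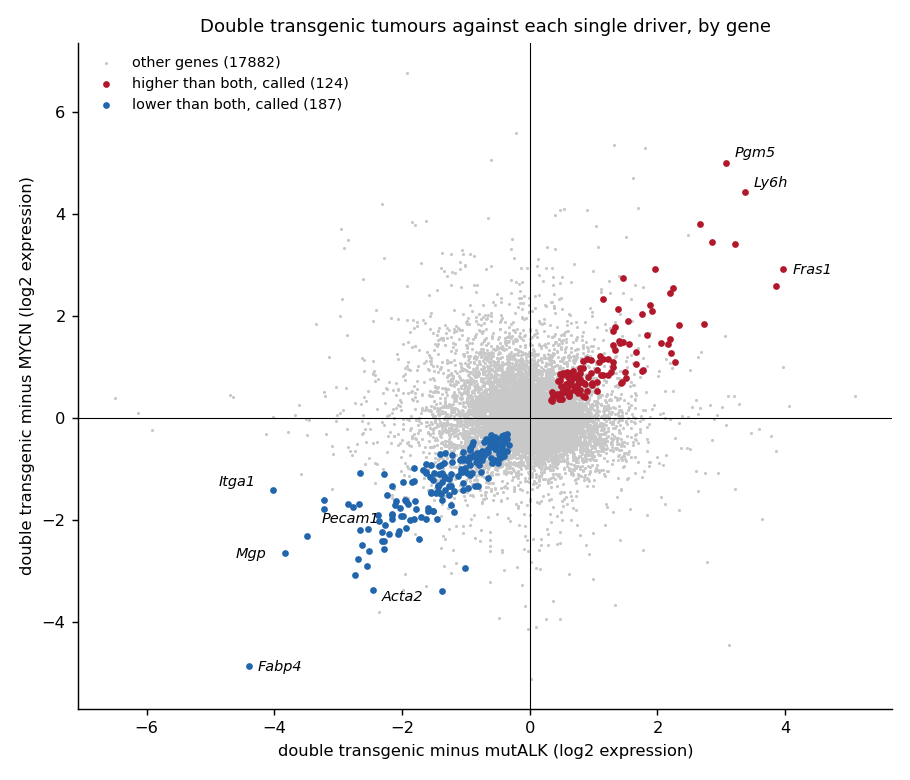
Each point is 1 of 18193 genes, placed by the difference of the double transgenic mean from the mutALK mean (horizontal axis) and from the MYCN mean (vertical axis), both in log2 expression. The 124 genes called higher than both single drivers lie in the upper right and the 187 called lower in the lower left, and the genes reaching farthest there are Pgm5, Ly6h and Fras1 on one side and Fabp4 on the other.

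Among called genes whose double arrays lay outside all 7 single-driver arrays, the largest rises were those of Pgm5, Ly6h, Fras1 and Tafa4. Pgm5, a protein of cell adhesion sites related to phosphoglucomutase, read 9.90, 10.48 and 9.39 in the double transgenic arrays, 7.91, 4.79 and 7.86 in mutALK and 4.50, 4.67, 4.93 and 5.59 in MYCN tumours. All 3 double arrays were thus above all 7 others, although mutALK 2 lay far below the other mutALK arrays. Its difference from the average was 4.04 ± 0.58 (adjusted p = 0.00539), with 3.07 ± 0.68 against mutALK and 5.0 ± 0.64 against MYCN. Ly6h, a membrane-anchored protein of the brain that acts on nicotinic receptors, read 8.88, 9.23 and 9.56 against 5.20 to 6.60 in mutALK and 4.59 to 5.06 in MYCN tumours. It was higher by 3.90 ± 0.36 (adjusted p = 0.000686), which is 14.9-fold. Fras1, a matrix protein of embryonic basement membranes, read 9.40, 9.39 and 7.67 against 4.61 to 6.25, a difference of 3.44 ± 0.32 (adjusted p = 0.000686). A second Fras1 probe set differed by 2.93. Tafa4, a secreted peptide of sensory neurons, read 8.10, 7.14 and 6.30 in the double arrays and 3.48 to 4.19 in the 7 others. That is close to the 2.73 to 3.53 that Y-linked genes read in female arrays, so its difference of 3.31 ± 0.29 (adjusted p = 0.000679) may be only a lower bound.

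Among the 12 largest rises named by a rule of size and separation, these 4 genes were followed by Col9a1, Hoxd3os1, Tcf24, Col24a1, Ebf3, Bmp6, Tspoap1 and Ppargc1a. Col9a1, a chain of cartilage collagen, averaged 9.51 ± 0.74 against 6.84 ± 0.88 in mutALK and 5.72 ± 0.36 in MYCN tumours and was higher by 3.23 ± 0.37 (adjusted p = 0.00237, with 2.04 for the mean of its probe sets). Bmp6, a bone morphogenetic protein, read 8.16, 6.95 and 6.82 against 4.08 to 6.04, a difference of 2.44 ± 0.32 (adjusted p = 0.00382). These and the 4 genes above kept their call under every alternative in which they were measured. The others did not. Hoxd3os1, an RNA antisense to Hoxd3, was called at 3.22 ± 0.70 and lost its call without mutALK 2, MYCN 2, double 2, double 3 or the liver-rich arrays, with array weights and with title numbers averaged (adjusted p from 0.0204 to 0.16 under the alternatives), and its second probe set differed by -0.11. Tcf24, a basic helix-loop-helix factor, was called at 3.16 ± 0.56 but not against mutALK alone (1.61 ± 0.66, adjusted p = 0.128), and lost its call without double 2, double 3 or the liver-rich arrays (0.00487 to 0.0731). Col24a1, a fibrillar collagen chain, read 7.72, 8.38 and 4.57 and was called at 3.15 ± 0.63, with the call lost without double 1, double 2 or the liver-rich arrays and with title numbers averaged (0.000118 to 0.175). Ebf3, a transcription factor of neuronal differentiation, was called at 3.03 ± 0.65 and missed the threshold against mutALK alone (adjusted p = 0.0522). Without mutALK 1 or 2, MYCN 4 or any of the double arrays that call was gone (0.0111 to 0.111). Tspoap1, a binding partner of presynaptic RIM proteins, was called at 2.40 ± 0.50, and Ppargc1a, a coactivator of mitochondrial genes, at 2.32 ± 0.49. Tspoap1 lost its call without MYCN 2, double 2, double 3 or the liver-rich arrays (0.0132 to 0.141), and Ppargc1a without MYCN 2 or any of the double arrays and with title numbers averaged (0.00291 to 0.117). Against both single drivers 10 of the 12 were called, all but Tcf24 and Ebf3. Of these 10, Ly6h, Fras1, Tafa4, Col9a1 and Bmp6 stayed beyond both in each of the alternatives in which they were measured, and Pgm5 did not without double 2. Hoxd3os1 lost that status under 17 alternatives, Tspoap1 and Ppargc1a under 7 each and Col24a1 under 6. The mean of all 12 was also above that of the adrenal gland.

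Under the same condition of non-overlapping arrays the largest falls were those of Fabp4, Mgp, Acta2, Aspn and Ccn2. Fabp4, the fatty acid carrier of fat cells and capillary endothelium, read 7.25, 7.43 and 4.56 in the double transgenic arrays, 11.12, 10.86 and 10.46 in mutALK, 9.72, 11.43, 11.29 and 12.64 in MYCN tumours and 13.15 to 14.24 in adrenal gland. The groups were more than 2 log2 units apart, and the difference from the average was -4.63 ± 0.66 (adjusted p = 0.00539, -2.71 for the mean of its probe sets). Fabp4 was the only 1 of 16 adipocyte genes called, although all 16 differences were negative (median -0.71). The adipocyte list mean overlapped, at 6.75, 6.01 and 5.90 in the double arrays against 6.18 to 9.34 in the single-driver arrays. Without the 5 liver-rich arrays, which leaves mutALK 2 as the lone array of its group, assumed to vary like the other groups, Fabp4 was at -5.05 and no longer called (adjusted p = 0.0537, the highest of a range that begins at 0.00294). Mgp, a matrix protein that keeps vessel walls from calcifying, read 9.01, 8.93 and 7.95 against 12.34 to 12.59 and 10.54 to 11.81, lower by -3.24 ± 0.27 (adjusted p = 0.000612). Itga1, the collagen-binding integrin subunit, read 6.38, 5.72 and 6.31 against 9.69 to 10.55 in mutALK and 7.24 to 7.73 in MYCN tumours. It was at -4.02 ± 0.30 against mutALK and -1.41 ± 0.28 against MYCN, so that most of its difference of -2.72 ± 0.25 (adjusted p = 0.000686) came from mutALK. Ccn2, the connective tissue growth factor, averaged 7.44 ± 0.34 against 10.93 ± 0.84 and 9.75 ± 0.46 and was lower by -2.90 ± 0.38 (adjusted p = 0.00353).

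Acta2, the actin of smooth muscle, read 7.91, 7.28 and 6.87 in the double arrays. In mutALK tumours it read 7.97, 10.95 and 10.50, so that mutALK 1 was nearly as low as double 1, and in MYCN tumours 10.37 to 11.11. Its difference was -2.92 ± 0.54 (adjusted p = 0.0173), the call was lost without double 2 or 3 and with title numbers averaged (0.000959 to 0.091 over alternatives), and the mean of its probe sets gave -1.10. Tagln, an actin-binding protein of smooth muscle, was called at -2.57 ± 0.40 and lost its call without double 2 (-2.43, adjusted p = 0.0562, 0.000212 to 0.0562). Pdgfrb, the receptor through which vessels recruit pericytes, read 7.91, 6.59 and 7.33 against 9.13 to 10.43 and was lower by -2.43 ± 0.28 (adjusted p = 0.00228). Aspn, a small proteoglycan of connective tissue, was at 3.70 ± 0.39, near the level of absent transcripts, against 6.43 ± 0.70 and 6.80 ± 0.76, so its difference of -2.91 ± 0.41 (adjusted p = 0.00502) may be a lower bound. Prss23, a secreted serine protease, was lower by -2.56 ± 0.41 (adjusted p = 0.00907). Aoc3, an amine oxidase of vessel and fat cell surfaces, was called at -2.73 ± 0.52 and Igfbp3, a carrier of insulin-like growth factors, at -2.43 ± 0.46, and both lost their call without double 2 or 3 and with title numbers averaged (0.0104 to 0.0777 and 0.00546 to 0.115). Ms4a4d, a membrane protein of the MS4A family, was called at -2.51 ± 0.41 and lost its call without double 2 (0.00311 to 0.0677). Mgp, Aspn, Ccn2, Itga1, Prss23 and Pdgfrb were called under every alternative in which they were measured. Each of the 12 falls was called beyond both single drivers and lay below the adrenal mean. That status was lost under 6 alternatives for Acta2, 4 for Aoc3, 4 for Ms4a4d, 3 for Igfbp3 and 1 for Fabp4. Of the 24 genes, 12 had further probe sets, and in 11 of these all of them had the same sign.

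**Figure D2:**
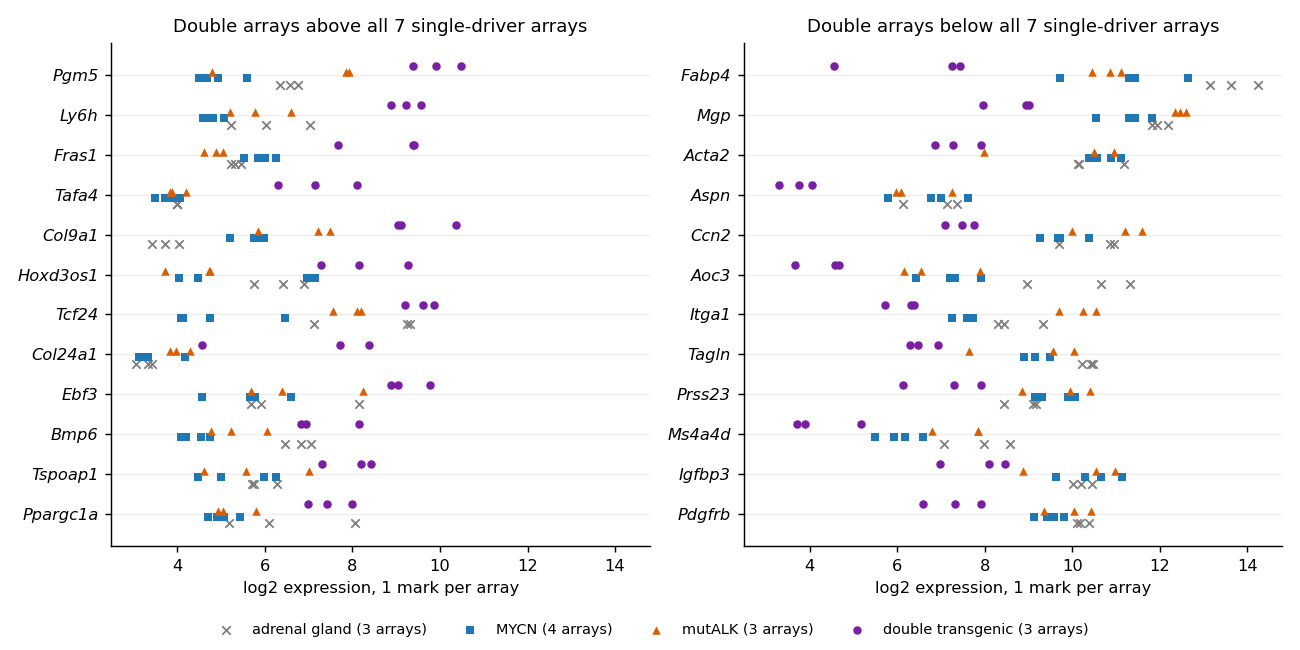
Log2 expression on each array (horizontal axis, 1 mark per array) of the 12 largest rises (left) and the 12 largest falls (right). The 3 double transgenic arrays, shown as circles, lie to the right of all 7 single-driver arrays for every gene on the left and to the left of them for every gene on the right, most widely for Ly6h and Fabp4 and most narrowly for Acta2, where mutALK 1 read 7.97 and double 1 7.91.

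Among the cell type lists, those of vessel lining, vessel wall and connective tissue held most of the genes called lower. Of the 20 endothelial genes 13 were called lower, 0 higher and 7 were not called, and 12 were beyond both single drivers. Pecam1, the adhesion molecule that marks vessel lining, read 5.07, 4.78 and 4.26 against 6.15, 7.19 and 7.0 in mutALK and 6.33, 6.94, 6.98 and 7.63 in MYCN tumours. Its groups were separate, and it was lower by -2.17 ± 0.29 (adjusted p = 0.00382). Emcn, an endothelial sialomucin, was called at -2.36 ± 0.49, and Cdh5, the cadherin of endothelial junctions, at -2.13 ± 0.38 (-1.25 for the mean of its probe sets). Their calls beyond both were lost under 5 and 3 alternatives. Emcn lost its call without MYCN 2, double 2, double 3 or the liver-rich arrays (0.00737 to 0.139 over alternatives) and Cdh5 without double 2 or 3 (0.00592 to 0.091), and both with title numbers averaged. The mean of the 20 genes was 6.25, 5.66 and 5.75 in the double arrays, 6.73, 7.36 and 7.17 in mutALK and 6.60, 7.39, 7.25 and 7.76 in MYCN tumours, and 8.88 to 8.96 in adrenal gland. All 3 double arrays were thus below all 7 single-driver arrays.

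Of the 14 pericyte and smooth muscle genes 9 were called lower, led by Acta2, Tagln and Pdgfrb, 0 higher and 5 were not called, with 8 beyond both. Their mean was 6.65, 6.22 and 6.28 in the double arrays against 7.29 to 8.49 in mutALK and 7.73 to 8.25 in MYCN tumours. Of the 19 fibroblast and matrix genes 8 were called lower, 0 higher and 11 were not called, with 7 beyond both. Col1a1, a chain of the main fibrillar collagen of connective tissue, read 7.51, 6.95 and 6.63 against 9.0 to 9.94 and was lower by -2.27 ± 0.31 (adjusted p = 0.00441). Its partner chain Col1a2 read 10.48, 9.64 and 9.62 against 11.32 to 12.06, lower by -1.87 ± 0.21 (adjusted p = 0.00208). Both chains were separate from all single-driver arrays and kept their calls under every alternative. Col3a1, the collagen of soft tissue and vessel walls, was called at -2.04 ± 0.47 and lost its call without mutALK 1 or 3, any of the MYCN arrays, adrenal 1, double 2, double 3 or the liver-rich arrays and with title numbers averaged (0.0153 to 0.153), and its call beyond both under 14 alternatives. The mean of the fibroblast and matrix list was 8.17, 7.41 and 7.20 against 8.24 to 9.27, so double 1 lay just under the lowest single-driver array.

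Together the 3 lists hold 53 different genes, of which 30 (56.6%) were called lower against 2.16% of all genes, 27 beyond both against 1.03%, and 32 had all double arrays below all single-driver arrays against 3.64%. The median differences of the endothelial, pericyte and fibroblast lists were -1.23, -1.79 and -1.32 beside -0.01 over all genes. The counts fell most without double 2 or 3. Over all genes those called lower fell too, from 393 to 63 without double 2, 163 without double 3 and 138 with title numbers averaged. Without double 2 there were 3 endothelial, 2 pericyte and 2 fibroblast genes called lower, and 4, 4 and 4 without double 3, while the list medians were -1.09, -1.82 and -1.16 without double 2 and -1.14, -1.59 and -0.95 without double 3. Without double 1, the array with liver, muscle and cortex transcripts, they were 14, 9 and 9. Without the 5 liver-rich arrays they were 6, 10 and 8, and with arrays of 1 title number averaged 5, 5 and 5. The control signals described above set all 3 double arrays apart from the single drivers. Of the 3, double 2 had the smallest 3' to 5' differences (0.71 for Actb, 0.43 for Gapdh) and the lowest poly-A mean (6.00). Their part in these counts was not tested. Over all 18 cell type lists 38 of 295 genes were called lower and 0 higher, and 30 of the 38 belonged to these 3 lists.

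**Figure D3:**
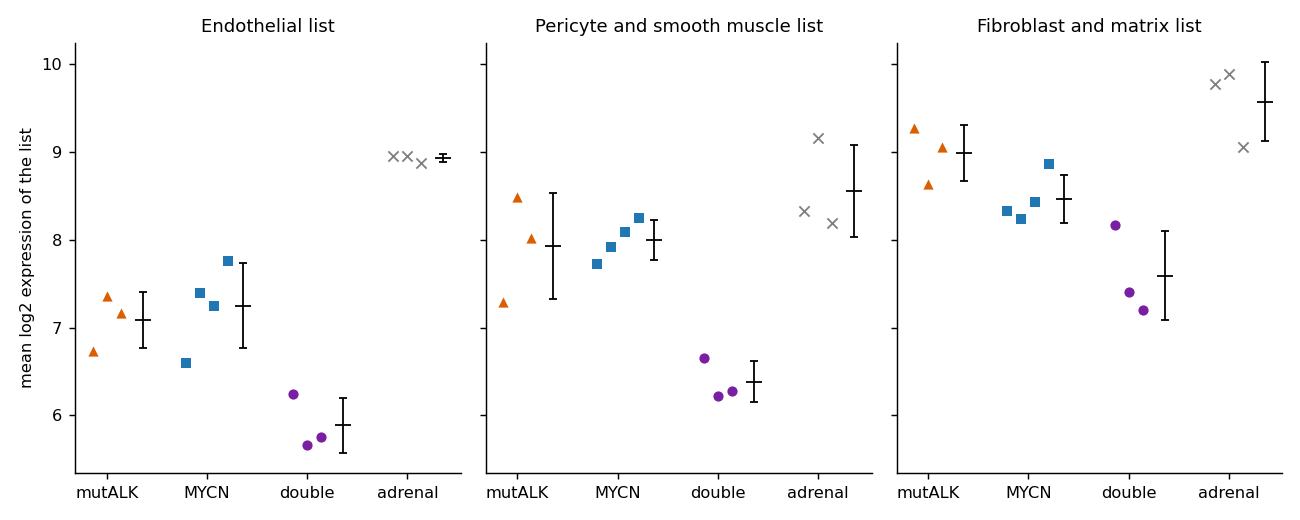
Mean log2 expression of the endothelial, the pericyte and smooth muscle, and the fibroblast and matrix lists (vertical axis) on each array of the 4 groups, with the group mean and SD beside the marks. The double transgenic arrays lie lowest in each panel, between 5.66 and 6.25, 6.22 and 6.65, and 7.20 and 8.17.

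The promoters of the genes that moved were searched for the site of the MYC and MAX pair, because MYCN acts through it, and for the CArG box, the site of serum response factor that many contractile genes carry. Windows of 250 bases before the start sites of RefSeq transcripts (GRCm38.p6) were used. Genes without a window were not searched. A window existed for 8 of the 12 largest rises and 6 of the 12 largest falls. It existed for 100 of the 124 genes beyond both and higher and for 133 of the 187 lower. The E-box CACGTG, which reads the same on both strands, was in 8 of 119 windows (6.72%) of the genes beyond both and higher, and in 7 of 171 (4.09%) of those beyond both and lower, beside 7.38% of 18109 windows of all genes measured and 6.02% of all 32851 windows. Neither share stood above that of all genes measured. Of the largest rises Tafa4 and Bmp6 carried it, in 2 of 9 windows (22.2%), and it was in 0 of 12 windows of the largest falls. The CArG box, searched on both strands with no mismatch allowed, was in 1 of 119 windows of the genes beyond both and higher (0.84%). It was in 3 of 171 windows of those beyond both and lower (1.75%). Of the largest falls 0 of 12 windows held it, and of the largest rises 1 of 9 windows (Ebf3). Of the 14 genes of the pericyte and smooth muscle list 11 had a window. Among these Myl9, the regulatory light chain of smooth muscle myosin, was the only one with an exact CArG box in it. That is 1 of 11 windows, beside 1.23% over the genes measured. Boxes outside the windows or with a mismatch were not searched, so the other genes of the list may carry one. Myl9 read 6.89, 6.38 and 5.96 in the double arrays against 7.76 to 8.66 in the single drivers, a difference of -1.78 ± 0.25 (adjusted p = 0.00508), and it was named for this box after its values were seen. A match is a description of the letters, not a site shown to be used, and neither motif contains the other. The 3 windows are shown 5′ to 3′ with the matching letters in capitals, at chr6:97060412-97060661 on the minus strand for Tafa4, chr13:38345466-38345715 on the plus strand for Bmp6 and chr2:156775214-156775463 on the plus strand for Myl9.
Tafa4: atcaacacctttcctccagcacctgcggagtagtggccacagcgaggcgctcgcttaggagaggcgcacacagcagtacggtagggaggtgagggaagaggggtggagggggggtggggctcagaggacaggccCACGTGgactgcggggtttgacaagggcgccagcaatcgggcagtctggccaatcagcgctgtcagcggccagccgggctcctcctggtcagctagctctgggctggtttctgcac
Bmp6: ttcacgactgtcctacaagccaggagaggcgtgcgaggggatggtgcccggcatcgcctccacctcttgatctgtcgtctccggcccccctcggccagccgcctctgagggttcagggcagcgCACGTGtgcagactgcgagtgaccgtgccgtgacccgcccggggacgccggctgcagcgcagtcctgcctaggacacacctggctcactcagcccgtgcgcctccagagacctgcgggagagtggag
Myl9: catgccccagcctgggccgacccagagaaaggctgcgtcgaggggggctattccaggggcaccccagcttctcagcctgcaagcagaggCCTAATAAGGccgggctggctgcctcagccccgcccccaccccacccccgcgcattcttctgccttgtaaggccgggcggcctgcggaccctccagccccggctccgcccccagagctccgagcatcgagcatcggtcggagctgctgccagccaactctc

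Most programme lists had a mean between the drivers, over RNA of all cells in the sample. Over 31 programme lists with 664 different genes 15 genes were called higher (2.26%) and 8 lower (1.20%), close to the 2.11% and 2.16% of all genes, and 21 list means lay between those of both single drivers. The mitosis list averaged 10.25, 10.37 and 9.82 in the double arrays, against 8.67 to 9.59 in mutALK and 10.35 to 10.63 in MYCN tumours. Double 1 and 3 lay between these ranges. Of the 31 mitosis genes 1 was called, and all 31 differences from the average were positive (median 0.37). Their median was 1.19 against mutALK and -0.44 against MYCN. The ribosome biogenesis list, at 9.65, 9.55 and 9.59, lay between 8.94 to 9.28 and 9.99 to 10.29. The list of catecholamine making and storage, at 10.13, 10.06 and 10.49, lay between 10.92 to 11.29 in mutALK and 9.04 to 9.38 in MYCN tumours. The pan-neuronal list lay at 11.06, 11.11 and 11.44 between 11.38 to 11.60 and 9.92 to 10.34, double 3 within the mutALK range. For each of these lists the count of called genes was at most 1.

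**Figure D4:**
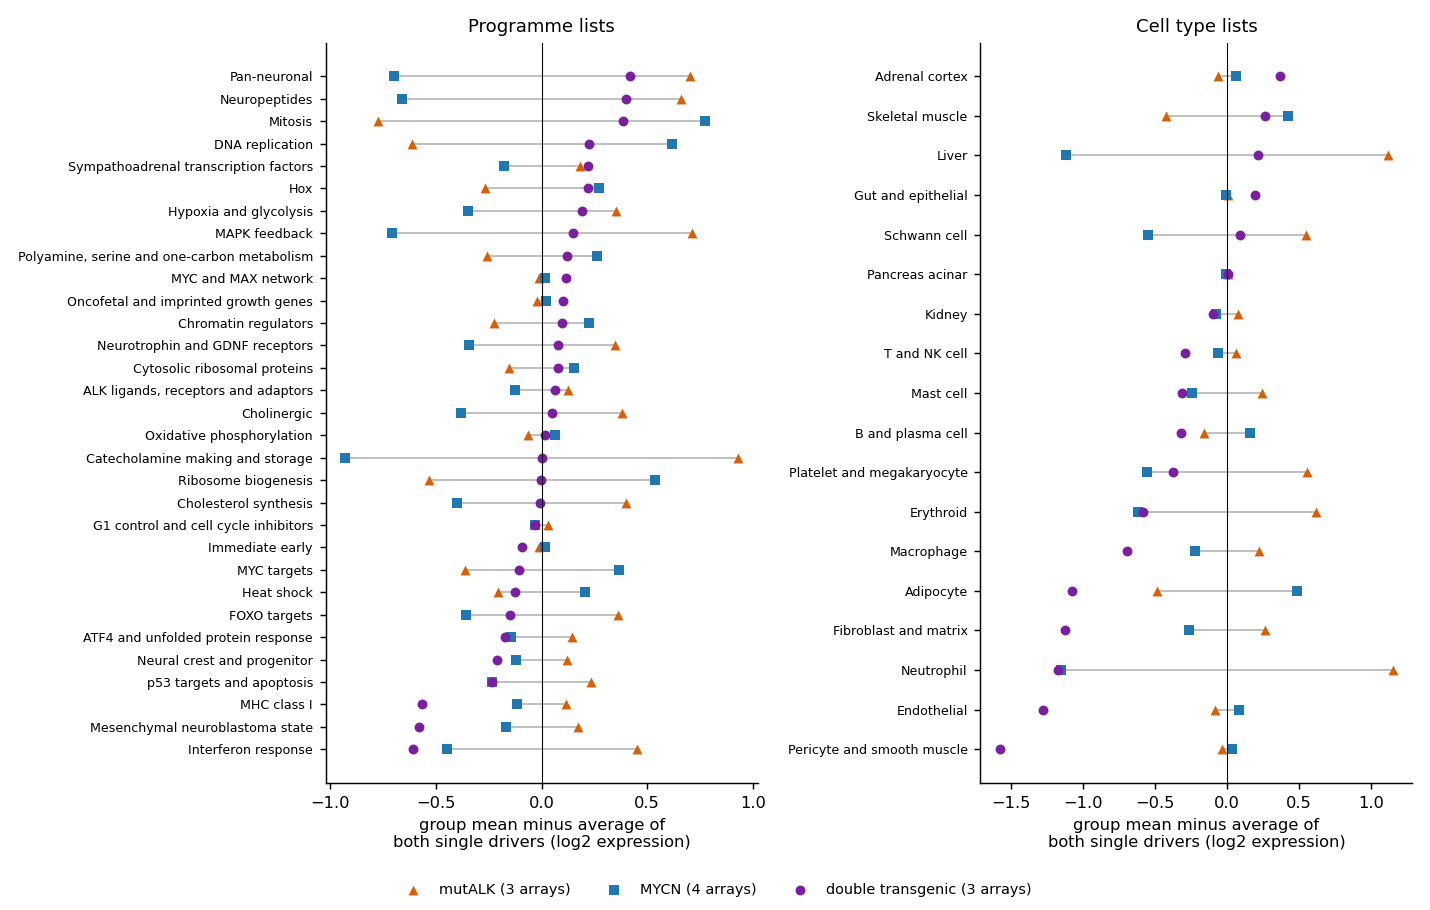
For 31 programme lists (left) and 18 cell type lists (right), the mean log2 expression of each tumour group minus the average of both single-driver means (horizontal axis), with a grey line joining mutALK and MYCN. The double transgenic mark lies on the grey line for 21 programme lists, and it is farthest from the line, to the left, for the pericyte and smooth muscle, the endothelial and the fibroblast and matrix lists.

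Some members of these programmes were called in the contrast, few of them beyond both single drivers. Of the 664 genes 5 were beyond both and higher and 5 beyond both and lower, beside 0.682% and 1.03% of all genes. Among receptors and signalling genes, Gfra3, the coreceptor through which artemin activates Ret, read 10.74, 10.84 and 10.54 against 9.04 to 9.82 in mutALK and 7.70 to 9.04 in MYCN tumours. It was higher by 1.73 ± 0.30 (adjusted p = 0.0115), and the call was lost without double 2 or the liver-rich arrays (0.00669 to 0.0726 over alternatives). Against mutALK alone it only just passed (1.15 ± 0.35, adjusted p = 0.0488), and its call beyond both was lost under 14 alternatives. It was the only one of 13 neurotrophin and GDNF receptor genes called. In the MAP kinase feedback list 1 of 19 genes was called higher and 1 lower. Etv5, an ETS factor that this pathway raises, read 9.98, 9.38 and 9.45, close to mutALK (8.52 to 9.43) and far above MYCN (4.97 to 6.14). Its call at 2.31 ± 0.28 (adjusted p = 0.00271, 1.07 for the mean of its probe sets) therefore marks a difference from MYCN alone. Spry1, an inhibitor of the same pathway, read 7.16, 6.61 and 7.09 below all single-driver arrays (7.68 to 8.28). It was called at -0.93 ± 0.17 (adjusted p = 0.0143) and beyond both, and lost its call without double 2 (0.0101 to 0.0866).

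Among the transcription factors of the sympathetic lineage, Lmo3, a LIM-domain cofactor linked to neuroblastoma, was the only one of 18 called. It read 8.32, 8.65 and 10.46 against 6.81 to 7.50, all above the single drivers with double 3 highest, and was higher by 2.01 ± 0.38 (adjusted p = 0.0181, call lost without double 2 or the liver-rich arrays and with title numbers averaged, 0.0123 to 0.0566). Chgb, a granin of catecholamine storage vesicles, read 11.38, 11.40 and 11.08 against 12.36 to 13.82 and was the only one of 18 catecholamine genes called, at -1.78 ± 0.33 (adjusted p = 0.0181, call lost without double 2 or 3, 0.00741 to 0.0772). Chrna7, a subunit of nicotinic receptors, was called at 1.86 ± 0.36 but not against mutALK alone (0.70 ± 0.42, adjusted p = 0.306; 1.09 from the average for the mean of its probe sets), and lost its call without double 1, double 2 or the liver-rich arrays and with title numbers averaged (0.00806 to 0.115). Of 25 Hox genes 2 were called, both higher and both of the Hoxd cluster, beside 2.11% called higher among all genes. Hoxd9 read 7.49, 8.22 and 7.47 against 5.21 to 7.22 and was called at 1.68 ± 0.28 (call lost without double 2 or the liver-rich arrays, 0.00724 to 0.0937). It was beyond both as well, but not under 14 of the alternatives. Hoxd3, at 7.02, 7.95 and 7.07 against 4.74 to 6.98, was called at 1.78 ± 0.40 and lost its call without mutALK 2, MYCN 2, any of the double arrays or the liver-rich arrays and with array weights (0.0173 to 0.167). Hoxd3os1, described above, is the antisense neighbour of Hoxd3.

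Ets1 fell, as did 3 genes of the mesenchymal list. Ets1, an ETS factor of neural crest and of vessel lining, read 7.33, 7.55 and 6.55 against 8.41 to 8.98 and was lower by -1.49 ± 0.22 (adjusted p = 0.00646) under every alternative. It was also called beyond both, except under 1 alternative. Of 23 genes of the mesenchymal neuroblastoma state, a set also expressed by fibroblasts and pericytes, 3 were called lower (beside 2.16% of all genes) and 0 higher. Of the 23 differences 21 were negative, with a median of -0.49. All double arrays lay below all single-driver arrays for 4 of the 23 genes, beside 3.64% of all genes. The list mean of 6.51 ± 0.16 was below both mutALK (7.26 ± 0.24) and MYCN (6.92 ± 0.25). The arrays overlapped, however, with double 1 at 6.68 and MYCN 1 at 6.64. The median of the list was -0.74 against mutALK and -0.24 against MYCN. Such a lean was not particular to the mesenchymal list. Differences were also negative for 25 of 26 interferon response genes (median -0.59), 12 of 13 MHC class I genes (-0.58) and 19 of 20 macrophage genes (-0.64). Against mutALK the medians were -1.01, -0.81 and -1.05 in the same order, and against MYCN -0.13, -0.53 and -0.49. The interferon list mean was 6.15, 5.84 and 5.77 in the double arrays. MYCN arrays ran from 5.78 to 6.44 and mutALK arrays from 6.18 to 8.16, highest in mutALK 1. All double arrays lay below all single-driver arrays for 2 interferon response, 1 MHC class I and 4 macrophage genes. None of the interferon response or MHC class I genes was called. Prrx1, a homeobox factor of mesenchyme, was called at -1.90 ± 0.32 (-0.80 for the mean of its probe sets), Notch3, a receptor of vessel-wall cells, at -1.80 ± 0.34 and Axl, a receptor tyrosine kinase, at -1.03 ± 0.22 (-0.57 for the mean of its probe sets). Prrx1 and Notch3 were beyond both (Notch3 not under 4 alternatives) and lost their calls without double 2 or 3 (0.00533 to 0.0715 and 0.00692 to 0.076), Notch3 also with title numbers averaged. Axl was not called against MYCN alone (adjusted p = 0.0695) and was no longer called without mutALK 2, MYCN 2 or 3, any of the double arrays or the liver-rich arrays, or with title numbers averaged (0.0139 to 0.125).

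Of 26 hypoxia and glycolysis genes 2 were called higher and 0 lower, and of 18 genes of polyamine, serine and one-carbon metabolism 2 were called higher (Gldc and Sat1) and 1 lower (Shmt2), beside 2.11% and 2.16% of all genes. Egln3, the oxygen sensor that hydroxylates hypoxia-inducible factors, read 11.63, 11.60 and 10.00, against 9.19 to 10.18 in mutALK and 4.49 to 6.88 in MYCN tumours. Double 3 lay within the mutALK range. Egln3 was called at 3.34 ± 0.51 (adjusted p = 0.00723) but not against mutALK alone (1.32 ± 0.60, adjusted p = 0.169), and lost its call without double 2 or the liver-rich arrays (0.00403 to 0.0546). Ndrg1, a stress gene raised by low oxygen, was called at 1.17 ± 0.28. The call was lost without any single one of the tumour arrays, adrenal 1 or the liver-rich arrays, with title numbers averaged, and at 0.57 with the mean of its probe sets (0.0109 to 0.275). Shmt2, the mitochondrial enzyme that makes one-carbon units from serine, read 7.65, 7.32 and 7.07, near mutALK (7.23 to 8.80) and below MYCN (9.03 to 9.88). It was called at -1.43 ± 0.29 and against MYCN alone (-2.24 ± 0.32), with the call lost without MYCN 2, double 2, double 3 or the liver-rich arrays (0.0115 to 0.115). Rps6, the ribosomal protein that growth signals phosphorylate, read 9.86, 9.52 and 9.72 against 8.86 to 9.12 and was higher by 0.68 ± 0.09 (adjusted p = 0.00403), beyond both and the only one of 27 ribosomal protein genes called. It lost that call without the 5 liver-rich arrays (0.55, adjusted p = 0.0571, 0.00276 to 0.0571 over alternatives). The other calls of the programme lists were Gldc, the glycine decarboxylase (1.60 ± 0.37), Sat1, a polyamine acetylase (0.94 ± 0.21), Kif4, a mitotic motor (0.80 ± 0.18), Rictor, a subunit of the second mTOR complex (0.67 ± 0.14), Nolc1, a nucleolar protein (0.66 ± 0.16), Ptpn11, the phosphatase SHP2 (0.40 ± 0.10), and Pmaip1, a death gene of the p53 response (-1.23 ± 0.29). Rictor alone of these was called beyond both, and not under 10 of the alternatives. All 7 lost their calls without mutALK 2, without double 2 and under 6 or more further settings, and with the mean of their probe sets Rictor was at 0.26, Nolc1 at 0.16 and Ptpn11 at -0.35.

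Some calls rested on a high level in mutALK tumours. S100a8 and S100a9, the calcium-binding proteins of neutrophils, were at 4.95 ± 0.95 and 4.94 ± 0.76 in double transgenic tumours, at 4.57 ± 0.72 and 4.85 ± 0.50 in MYCN tumours and at 11.44 ± 0.62 and 11.09 ± 0.67 in mutALK tumours. Their calls at -3.05 ± 0.43 and -3.02 ± 0.36 (adjusted p = 0.00502 and 0.00243) rest on the high mutALK level, and neither differed from MYCN beyond its error (0.38 ± 0.47 and 0.10 ± 0.40). In all 4 of 15 neutrophil genes were called lower (26.7%, beside 2.16% of all genes) and none of them beyond both. Ppbp, a platelet chemokine, likewise was at 3.86 ± 0.26, 3.81 ± 0.31 and 6.88 ± 0.20 in the same order. Mrc1, the mannose receptor of macrophages, was the only one of 20 macrophage genes called (-1.40 ± 0.34, adjusted p = 0.0453). Its call was lost without any single one of the mutALK arrays, MYCN 2 or 3, adrenal 1 or 3, double 2, double 3 or the liver-rich arrays, with array weights, title numbers averaged, the tumour arrays alone or the single drivers averaged over their 7 arrays (0.0241 to 0.19). No member of the T and NK cell, B and plasma cell, erythroid, mast cell, Schwann cell, adrenal cortex, liver, kidney, pancreas, skeletal muscle or gut lists was called.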

How the data were processed

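RNA of 13 mouse samples was measured on 1-colour expression arrays. The deposited log2 values are RMA expression values made with Partek, per the submitters' processing notes (versions not given in the sources used here), and were used without further scaling. Of 45101 probe sets, 34945 have 1 gene symbol, and the one with the highest mean over the 13 arrays stood for each of 18193 genes. All 4 groups entered 1 linear model (limma 3.58.1 in R 4.3.3, lmFit and eBayes, 9 residual degrees of freedom). P-values are two-sided and adjusted by Benjamini-Hochberg over all genes. No dim gene was left out, so a dim gene's difference may be understated, and the number of arrays limits the precision. The fit was checked on simulated data.

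The comparison, the gene lists and the tests were chosen with earlier results of these data known. Named were Mycn, Alk, in each direction the 12 largest called differences of at least 1 whose double arrays did not overlap the single-driver arrays (without predicted, immunoglobulin and sex genes), and at most 3 members of each list among those called. Others are said to be chosen after their values were seen. Promoter sequences are from RefSeq (GRCm38.p6), which has a window for 76 of the 103 named genes. The alternatives were 26: other scaling, probe set rules, filters, variance models, covariates and sample sets, and each array left out in turn.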

Additional observations from a re-analysis of the deposited data

Results flagged for a closer look

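In the group of 4 MYCN arrays, 8 of 176 values tested had a single array far from the others, past Dixon's 95% critical value, which chance passes in about 1 of 20 groups. MYCN 1 stood apart for Chrna7 (8.32 against 7.27 to 7.37), Notch3 (8.23 against 8.59 to 8.65) and the pancreatic protease gene Cela3b (6.32 against 6.49 to 6.5). The same array stood apart for the median of chromosome 3 genes with a mean level of at least 6 (0.12 against -0.21 to -0.18). MYCN 2 was lowest in the mean of the catecholamine making and storage list (9.04 against 9.37 to 9.38). MYCN 3 was highest in the skeletal muscle list (7.5 against 4.93 to 5.02) and lowest for the cell cycle inhibitor Cdkn2b (5.6 against 5.92 to 5.93). MYCN 4 was highest for Spry1 (8.0 against 7.68 to 7.72).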

How the results depend on the processing

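Over 103 named genes and 26 alternatives, 2325 of 2656 values kept direction and side of the threshold, 269 lost a call, 51 gained one and 11 reversed. Alk, at 0.00, reversed with centring (0.02), without the liver-rich arrays (0.01), with the liver mean as a covariate (0.01) and over single arrays left out (-0.18 to 0.18). With the mean of all probe sets Ptpn11 (-0.35), Atp5c1 (0.2) and Atrx (-0.21) reversed. Calls in double minus the average (777) were 2131 with every probe set on its own, 284 with title numbers averaged, 311 with at least 2-fold and 120 to 1317 with 1 array left out. Genes beyond both (311) were 818, 134, 136 and 114 to 516 in the same order. Genes with double arrays beyond all single-driver arrays (1242) were 2701 with every probe set, 3499 without the liver-rich arrays and 1323 to 2686 with 1 array left out. Title numbers averaged left 5 endothelial (13), 5 pericyte (9) and 5 fibroblast (8) genes called lower, and endothelial genes were 6 without the liver-rich arrays. With 1 array left out they ran from 3 to 15, 2 to 10 and 2 to 9. Among all genes 393 were called lower, 138 with title numbers averaged and 63 to 637 with 1 array left out. Fewer arrays or more rows tested are part of these settings, and otherwise the cause was not tested. Of 1225 list medians under alternatives 45 moved beyond the spread of the double arrays. Rescaling moved the median of all genes by 0.02, and leaving out the dimmest 40% of genes or double 2 by 0.04. The calls depended more on scaling. Beside 384 higher and 393 lower they were 285 and 362 with quantile normalization again. With each array centred on its median they were 219 and 305. Genes beyond both were 294 and 232 under these 2 settings, beside 311. No paired analysis was possible because the groups share no replicate numbers in the labels.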

Other observations

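The following genes were chosen after their values were seen. Some basement membrane genes were below both single drivers, whereas Fras1, another, was above them. Col4a1 and Col4a2, the chains of the main basement membrane collagen, read 9.53, 8.83 and 9.3, and 8.37, 7.76 and 7.95 in the double arrays. The single-driver arrays read 10.77 to 11.47 for Col4a1 and 9.53 to 10.5 for Col4a2, so neither overlapped. Their differences were -1.97 ± 0.18 and -2.03 ± 0.19 (limma adjusted p = 0.000679 and 0.000686), called under every alternative. Nid1 (-1.55 ± 0.21), Nid2 (-1.9 ± 0.36) and Lama4 (-1.31 ± 0.23), which link and build the same membrane, were also called, but not without double 2 for Nid2 and Lama4, without double 3 for Nid2, with title numbers averaged for Nid2, or without the liver-rich arrays for Nid1 and Lama4. Kcnj8 and Abcc9, members of the pericyte list and the subunits of the potassium channel of pericytes, were called at -2.35 ± 0.45 and -2.18 ± 0.35, and lost their calls without double 2, Kcnj8 also without double 3.

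Angpt1, the ligand with which perivascular cells stabilise vessel lining, lay the other way. It read 7.76, 7.02 and 7.94 against 4.71 to 4.98 in mutALK and 4.59 to 6.39 in MYCN tumours, higher by 2.28 ± 0.37 (limma adjusted p = 0.00953; 0.0781 without the liver-rich arrays). Its second probe set differed by 0.17, and the mean of both gave 1.23. Cd276, an immune checkpoint molecule of the B7 family, read 9.28, 9.01 and 9.13 against 8.24 to 8.68 and was higher by 0.66 ± 0.11. Trim71, a stem cell ubiquitin ligase, was higher by 1.33 ± 0.16, and Meis1, a homeobox partner of Hox proteins, by 1.16 ± 0.15. Cd276, Trim71 and Meis1 were called under every alternative, but beyond both not under 3 for Cd276 and 1 for Meis1.

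Chromosome 3 held 574 genes with a mean level of at least 6. Relative to the single-driver average their medians were -0.15, -0.22 and -0.21 in the double arrays. This was like MYCN 2, 3 and 4 (-0.21, -0.18 and -0.18) and adrenal gland (-0.29 to -0.22). MYCN 1 was at 0.12 and the mutALK arrays at 0.06, 0.23 and 0.03. The double arrays thus lay within the range of the MYCN arrays or next to it. Of the 574 genes 41 were called (7.14%), 6 higher and 35 lower. With the same minimum level, the share called ran from 2.92% on chromosome 12 to 7.6% on chromosome 9. Chromosomes 4 (38 higher, 11 lower) and 5 (36 higher, 10 lower) had the opposite balance. No copy number was measured here.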
